A study of Mus musculus with 4 samples.

Results

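Amino acid transporters of the mouse kidney were described from 4 arrays. The members were the probe sets whose only annotated gene symbol belongs to the solute carrier families Slc1a, Slc3a, Slc6a, Slc7a, Slc36a, Slc38a or Slc43a. The rule used names alone and no measured value, but members and lists were chosen with earlier results of these data known. It took 125 probe sets of 45037, with 63 symbols. Of these symbols 3 (Slc36a1os, Slc6a19os and Slc7a6os, with 4 probe sets) name genes on the strand opposite a carrier, which left 60 carriers, read from 121 probe sets, among 18193 genes. Of the 60 carriers, 46 reached the floor, defined as the 40th percentile of all signals (a log2 signal of 5.72), in 1 or more arrays, 40 reached it in all arrays and 14 stayed under it in every array. Not every member carries amino acids: Slc6a2, Slc6a3 and Slc6a4 carry monoamines, Slc6a8 carries creatine and Slc43a3 carries purine nucleobases.

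Whole kidney RNA came from male C57Bl/6 mice of 4 groups: wild type after sham surgery, wild type after renal ischemia (60 min) with reperfusion for 24 h, and the same sham and ischemia-reperfusion conditions in mice labelled Tet2KO. Kidneys after ischemia-reperfusion are called injured here. Each group was 1 array of RNA pooled from 3 mice, so the spread between mice is unknown, no test was possible and no p-value is given. The labels give neither the age of the mice nor the kind of Tet2 allele, and Tet2, a DNA demethylation enzyme, was not clearly lower in the sham array labelled knockout. Its probe sets differed from wild type by -0.09 and 0.41 (log2) after sham and by -0.41 and -0.70 after injury, and the groups are therefore called knockout-labelled.

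The proximal tubule takes nearly all filtered amino acids back from the urine. Carriers in its luminal brush border, many of them driven by sodium, bring amino acids into the cell, and a separate set in the basolateral membrane passes them on to the blood. Several carriers work as pairs of a light chain that transports and a heavy chain, encoded by Slc3a1 or Slc3a2, that brings it to the membrane, and others need a partner such as collectrin (Cltrn). Other members serve every cell: uptake carriers that are induced by amino acid shortage, carriers of osmolytes, and carriers of the lysosome that signal amino acid supply.

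RefSeq promoter windows (GRCm38.p6) were available for 43 of the 60 carriers. The 250 bases before the transcription start are shown for 3 luminal carriers whose signals were lower at 2-fold or more in the knockout-labelled injured kidney than in its sham: Slc3a1, the heavy chain of the cystine carrier, and the paralogs Slc6a20a and Slc6a20b, which lie on the same chromosome. Capitals mark matches to the motifs searched on both strands.
Slc3a1, chr17:85028097-85028346, plus strand: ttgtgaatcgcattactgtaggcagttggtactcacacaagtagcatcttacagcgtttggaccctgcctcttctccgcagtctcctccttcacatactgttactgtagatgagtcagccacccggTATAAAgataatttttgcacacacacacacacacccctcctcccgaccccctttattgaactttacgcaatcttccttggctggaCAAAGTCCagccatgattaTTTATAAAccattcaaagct
Slc6a20a, chr9:123678833-123679082, minus strand: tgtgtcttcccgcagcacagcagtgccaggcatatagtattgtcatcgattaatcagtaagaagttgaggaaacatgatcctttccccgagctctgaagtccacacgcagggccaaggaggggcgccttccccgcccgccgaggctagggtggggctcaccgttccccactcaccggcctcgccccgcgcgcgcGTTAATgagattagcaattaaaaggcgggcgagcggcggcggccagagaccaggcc
Slc6a20b, chr9:123632539-123632788, minus strand: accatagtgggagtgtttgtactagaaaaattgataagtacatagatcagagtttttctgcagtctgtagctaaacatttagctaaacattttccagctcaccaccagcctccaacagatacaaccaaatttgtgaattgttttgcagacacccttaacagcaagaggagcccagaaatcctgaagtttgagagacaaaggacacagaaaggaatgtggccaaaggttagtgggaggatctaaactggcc
The Slc3a1 window held the HNF4 core CAAAGTCC at position -39 from the start, and TATAAA on one strand or the other at -124, -20 and -18, the last pair overlapping. The Slc6a20a window held the HNF1 letters GTTAAT at -56, and the Slc6a20b window held none of the motifs. HNF1 and HNF4 are transcription factors of the proximal tubule. Aligned without gaps, the Slc6a20a and Slc6a20b windows were identical at 55 of 250 bases, or 22%.

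GTTAAT was in 6.43% of 32851 promoter windows of all genes and in 6 of the 64 carrier windows (9.38%). CAAAGTCC was in 1.2% of all windows and in 1 carrier window, that of Slc3a1. The core of the amino acid response element, TGATGNAA, was in 3.45% of all windows and in 4 carrier windows, which belong to Slc7a11, Slc7a7 and Slc6a21. TATAAA was in 12.4% of all windows and in 6 carrier windows. Of the 8 carriers lower in the knockout-labelled response, 6 had a window, and GTTAAT was in windows of 3 of them, Slc36a1, Slc6a13 and Slc6a20a. Counted in the same way, by carrier, GTTAAT was in 6 of the 43 carriers with a window. Some carriers have several windows, so counts by carrier do not compare with shares of windows. These matches describe the letters of the windows and not the binding of a factor.

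After ischemia-reperfusion, few carriers changed in wild type and more did in the knockout-labelled pair, where 5 of the 8 lower carriers were luminal carriers of the proximal tubule. A carrier was called higher or lower when its signals differed by 2-fold or more, after signals under the floor had been set to it. In wild type, 1 of 46 measured carriers was higher (Slc38a3) and 3 were lower (Slc7a13, Slc36a2 and Slc43a3), or 2.17% and 6.52%, where 2.06% of 13531 measured genes were higher and 2.18% lower. In the knockout-labelled pair, 2 of 44 were higher (Slc38a2 and Slc6a8) and 8 were lower (Slc7a13, Slc6a20b, Slc6a13, Slc7a12, Slc3a1, Slc36a1, Slc6a20a and Slc1a1). These are 4.55% and 18.2% of the measured carriers, against 6.06% and 6.89% of 13600 genes. The share of lower carriers was above that of all genes in the knockout-labelled pair, and the count of 8 stayed between 7 and 9 under the alternatives tried. The 3 lower carriers of wild type became 1 with a pseudocount or with a floor at the 50th percentile. The shares of higher carriers were near those of all genes in both genotypes. The median carrier hardly moved, at -0.04 (log2) in wild type and -0.03 in the knockout-labelled pair, where the medians of all genes were 0.02 and -0.02.

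**Figure D1:**
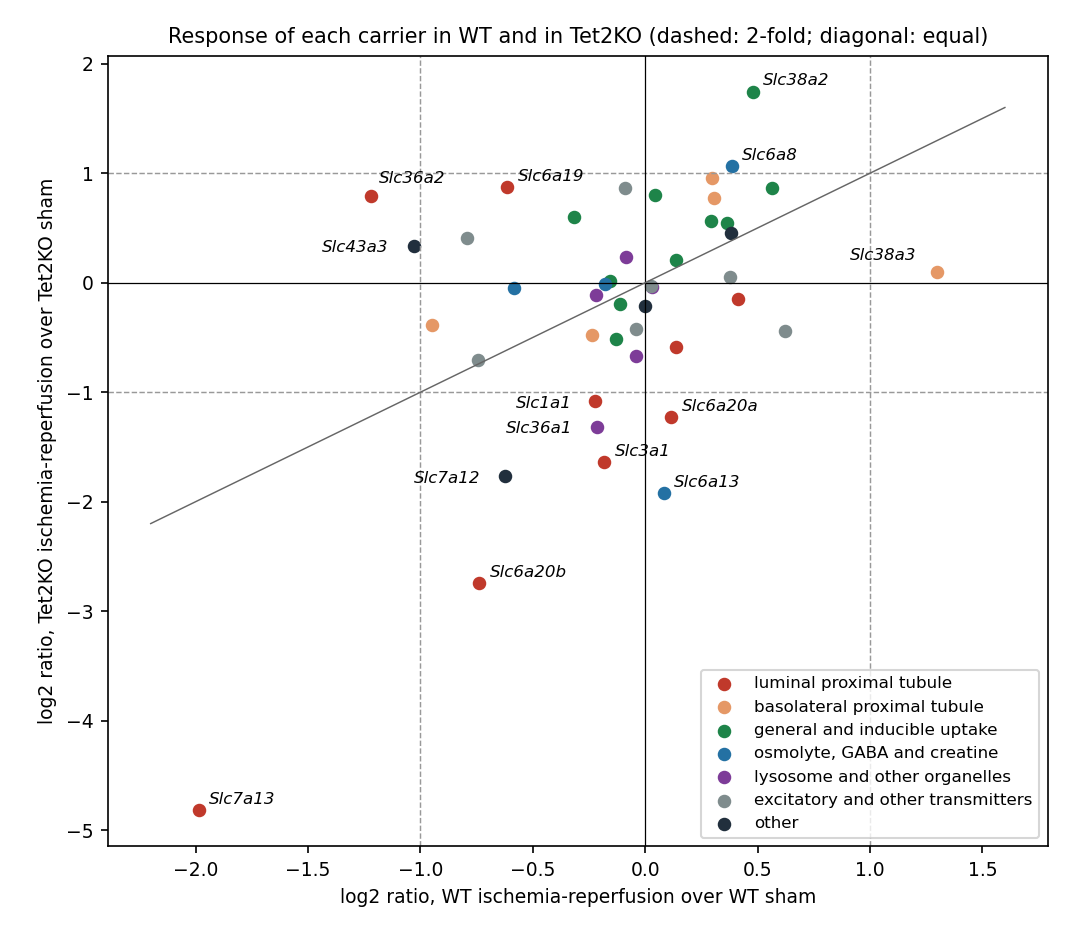
Response of 44 carriers measured in both genotypes. The x axis gives the log2 ratio of injured over sham kidney in wild type and the y axis the same ratio in the knockout-labelled pair; each point is 1 gene, colours are role groups, dashed lines mark 2-fold and the diagonal marks equal responses. Slc7a13 lies at -1.99 and -4.82, and Slc38a2 is the highest point, at 0.48 and 1.74.

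The responses of the genotypes share no array. Among the 44 carriers measured in both, 29 had ratios of the same sign and 15 of opposite signs, and the change was the larger one in the knockout-labelled pair for 31. The SD of the log2 ratio over carriers was 0.57 in wild type and 1.14 in the knockout-labelled pair. Slc7a13 was the 1 carrier lower at 2-fold or more in both, and no carrier (0 of 44) was higher in both. These signs, sizes, SDs and overlaps were not computed over all genes. Called shares rose over all genes too, from 2.06% higher and 2.18% lower in wild type to 6.06% and 6.89%. Larger changes in the knockout-labelled pair were thus not particular to carriers. Across these carriers, which share arrays and are not independent, Pearson's r between the responses was 0.49 and Spearman's rho 0.35. Across 13323 genes the values were 0.55 and 0.50. Probe sets of the same gene, read from the same arrays, differed in log2 ratio. Over all genes the SD was 0.24 in the wild-type response and 0.39 in the knockout-labelled response, and over carriers 0.26 and 0.39. This SD covers differences between probe sets only. It leaves out error between arrays and between pools, which 1 array per group cannot show.

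The luminal proximal tubule group held the largest losses. Its 9 members were all measured. In wild type 2 were lower and 0 higher, with a median of -0.22. In the knockout-labelled pair 5 were lower and 0 higher, with a median of -1.08. Over all genes 2.18% and 6.89% were lower in these comparisons. The 32 and 30 measured carriers outside the luminal and basolateral groups had 1 and 3 lower members in the same comparisons. Several of them, such as Slc1a7 at 6.50 in the knockout-labelled sham, lay within 2-fold of the floor. Such carriers could not be called lower, so signal level enters this contrast. The outside carriers were sorted by role, and which cells made them was not measured, so proximal tubule cells may make some of them too.

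Slc7a13 encodes AGT1, a carrier of aspartate, glutamate and cystine in the last segment of the proximal tubule, where it pairs with the Slc3a1 heavy chain. The probe set used for it read 13.77 (log2 signal) in wild-type sham, 11.79 in wild-type injured, 13.80 in knockout-labelled sham and 8.98 in the knockout-labelled injured kidney. Both sham arrays were high, and both injured arrays were below them. The signal was 3.96-fold lower after injury in wild type and 28.2-fold lower in the knockout-labelled pair. A second probe set read 9.36, 8.13, 9.85 and 4.34 in the same arrays, and the last of these lies under the floor. Between the injured arrays, Slc7a13 was 6.98-fold lower in the knockout-labelled one, while the sham arrays differed by 0.03 (log2).

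Slc3a1 encodes rBAT, the heavy chain of the luminal carrier of cystine and basic amino acids, and Slc7a9 encodes its light chain b0,+AT; loss of either causes cystinuria. Slc3a1 read 12.80 in wild-type sham, 12.62 in wild-type injured, 12.84 in knockout-labelled sham and 11.20 in the knockout-labelled injured kidney. The low value was confined to the knockout-labelled injured array, 3.12-fold under its sham. Slc7a9 read 11.59, 11.73, 11.44 and 10.85 in the same order. Its knockout-labelled injured value was again the lowest, but the difference of 1.51-fold from sham stayed under 2-fold.

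Slc6a20a and Slc6a20b, whose promoters are shown above, belong to the family of carriers that take up proline and other imino acids. Slc6a20b read 11.75 in wild-type sham, 11.02 in wild-type injured, 11.90 in knockout-labelled sham and 9.15 in the knockout-labelled injured kidney. It was 1.67-fold lower after injury in wild type and 6.71-fold lower in the knockout-labelled pair. Its other probe set gave log2 ratios of -0.59 and -3.30, close to the -0.74 and -2.75 of the one used. Slc6a20a read 9.74, 9.85, 9.86 and 8.63, so that 3 arrays lay together and the knockout-labelled injured array was 2.34-fold under its sham. Whether probes of these paralogs bind both transcripts was not tested.

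Slc1a1 encodes EAAC1, the luminal carrier of glutamate and aspartate. It read 12.00 in wild-type sham, 11.77 in wild-type injured, 12.07 in knockout-labelled sham and 10.98 in the knockout-labelled injured kidney, 2.12-fold lower than its sham. Its other probe sets gave log2 ratios of -0.91 and -0.93 for the same comparison, just short of 2-fold. Slc6a18, which encodes B0AT3, a neutral amino acid carrier, read 11.58, 11.99, 11.81 and 11.67, a range smaller than 2-fold with no array apart from the rest.

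Slc6a19 encodes B0AT1, the main luminal carrier of neutral amino acids, which is mutated in Hartnup disorder. Its signal was 11.73 in wild-type sham, 11.12 in wild-type injured, 11.38 in knockout-labelled sham and 12.26 in the knockout-labelled injured kidney. It was 1.53-fold lower after injury in wild type and 1.83-fold higher in the knockout-labelled pair, and 2.20-fold higher in the knockout-labelled than in the wild-type injured kidney. The other probe set of Slc6a19 did not show the higher value: it read 10.88, 9.93, 10.40 and 10.05, with log2 ratios of -0.95 and -0.36 after injury. The direction of Slc6a19 in the knockout-labelled pair therefore depends on the probe set.

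Slc36a2 encodes PAT2, a proton-coupled carrier of glycine, proline and alanine that is known in the proximal tubule and also as a surface marker of brown fat. Its signal was 6.94 in wild-type sham, 5.46 in wild-type injured, 5.55 in knockout-labelled sham and 6.52 in the knockout-labelled injured kidney, and the middle values lie under the floor. It was at least 2.33-fold lower after injury in wild type, at least 1.73-fold higher after injury in the knockout-labelled pair and at least 2.33-fold lower in the knockout-labelled than in the wild-type sham. Both 2-fold calls rest on the floor, with -0.64 in place of -1.22 (log2) when it was set at the 50th percentile. Fat markers were high in the same arrays as Slc36a2. Of the 7 fat markers on the array, 6 were at or over the floor in the wild-type sham, 2 in the wild-type injured, 2 in the knockout-labelled sham and 5 in the knockout-labelled injured kidney. The log2 of their summed signal was 12.81, 9.55, 10.62 and 13.25, and Adipoq, made by fat cells alone, read 10.11, 4.46, 4.19 and 9.31. Their part in the Slc36a2 values was not tested.

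**Figure D2:**
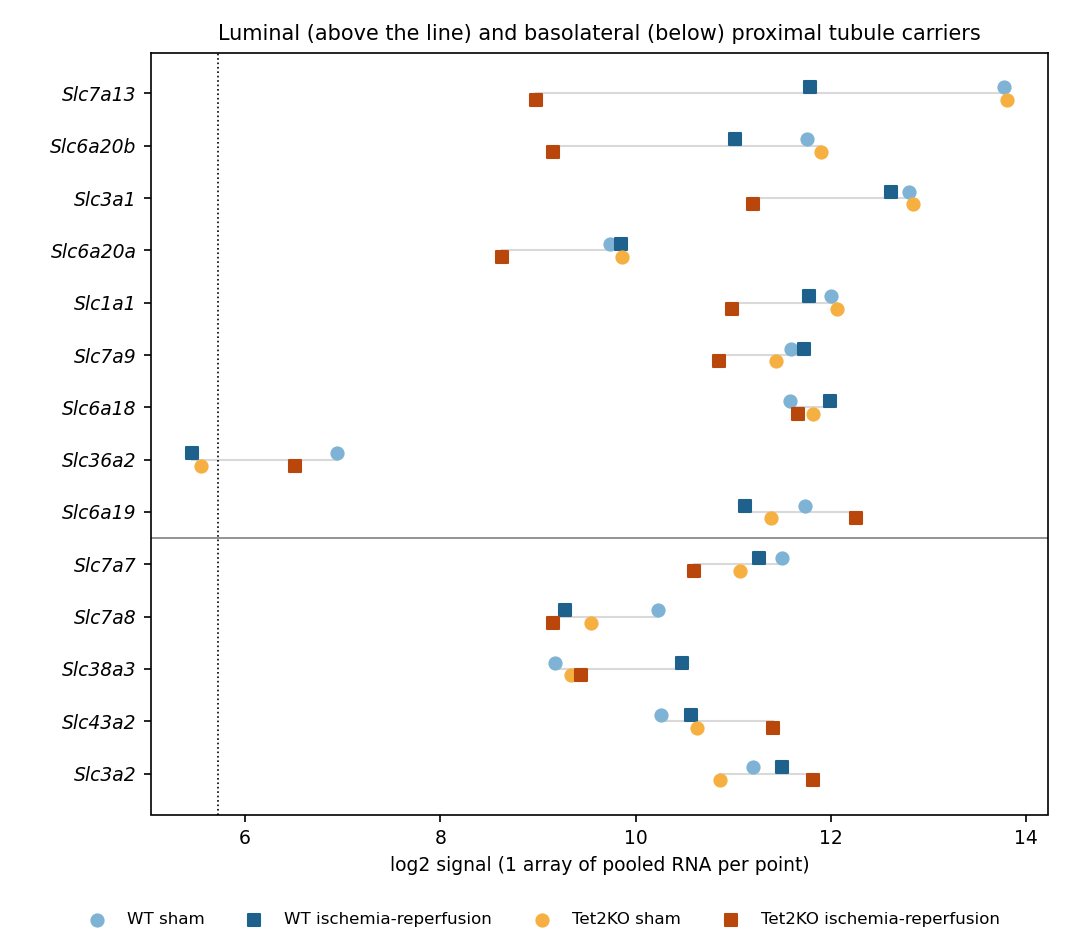
Log2 signals of the 9 luminal carriers (above the horizontal line) and the 5 basolateral carriers (below it) in each array, 1 point per array of pooled RNA; circles are sham, squares injured, blue wild type and orange knockout-labelled, and the dotted line is the floor of 5.72. The knockout-labelled injured array, at 8.98 for Slc7a13, 9.15 for Slc6a20b and 11.20 for Slc3a1, lies left of the other arrays for these genes, and right of them for Slc6a19 at 12.26.

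Losses were not limited to amino acid carriers. Markers of nephron segments are given here as lists that are too short to rank the segments. Of 13 other proximal tubule markers, 2 were lower at 2-fold or more after injury in wild type and 7 in the knockout-labelled pair, with medians of -0.48 and -1.21. The log2 of their summed signal ranged from 16.34 to 16.99 over the arrays, a sum in which Kap and Acsm2 weigh most, whose log2 ratios in the knockout-labelled pair were -0.11 and -0.28. Of 7 markers of the loop and distal tubule, 2 and 6 were lower, with medians of -0.74 and -2.22. Of 5 collecting duct markers, 0 and 1 were lower, with medians of -0.28 and -0.10. That list was split in the knockout-labelled pair, with Aqp3 at -1.21, Hsd11b2 at -0.97, Foxi1 at -0.10, Fxyd4 at 0.15 and Aqp2 at 0.18. Over all genes 2.18% and 6.89% were lower. All 3 markers of injured tubule were higher in both genotypes, with medians of 5.67 in wild type and at least 7.34 in the knockout-labelled pair on the log2 scale. In whole kidney RNA, fewer cells of a type and less RNA per cell cannot be told apart, and the part of these shifts in the carrier values was not tested.

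The basolateral group has 5 members, too few to set its share against that of all genes or of the luminal group. Of these, 1 was higher and 0 lower after injury in wild type, and 0 were either in the knockout-labelled pair, with medians of 0.30 and 0.10. Slc38a3 encodes SNAT3, which takes glutamine from the blood as fuel for ammonia production and is known to be induced by acidosis. It read 9.17 in wild-type sham, 10.47 in wild-type injured, 9.34 in knockout-labelled sham and 9.44 in the knockout-labelled injured kidney. The wild-type injured array stood above the other 3, 2.46-fold above its sham and 2.05-fold above the knockout-labelled injured array. A second, dimmer probe set gave a log2 ratio of 0.32 for the wild-type response, also above 0 but under 2-fold.

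Slc3a2 encodes the heavy chain 4F2hc, and Slc7a7 and Slc7a8 encode light chains that pair with it, y+LAT1 for basic and LAT2 for neutral amino acids. Slc3a2 read 11.20, 11.50, 10.86 and 11.82 in wild-type sham, wild-type injured, knockout-labelled sham and knockout-labelled injured kidney. Both injured arrays lay above both sham arrays, by 1.23-fold in wild type and 1.94-fold in the knockout-labelled pair. Slc7a7 read 11.50, 11.26, 11.07 and 10.60, and Slc7a8 read 10.23, 9.28, 9.54 and 9.15. For both light chains each injured array lay below its own sham, Slc7a8 by 1.93-fold in wild type, and none of these differences reached 2-fold. Slc43a2, which encodes LAT4, an exit path for branched-chain and aromatic amino acids, read 10.26, 10.57, 10.63 and 11.40. It was 1.71-fold higher after injury in the knockout-labelled pair, and a dimmer probe set gave a log2 ratio of 0.19 there.

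**Figure D3:**
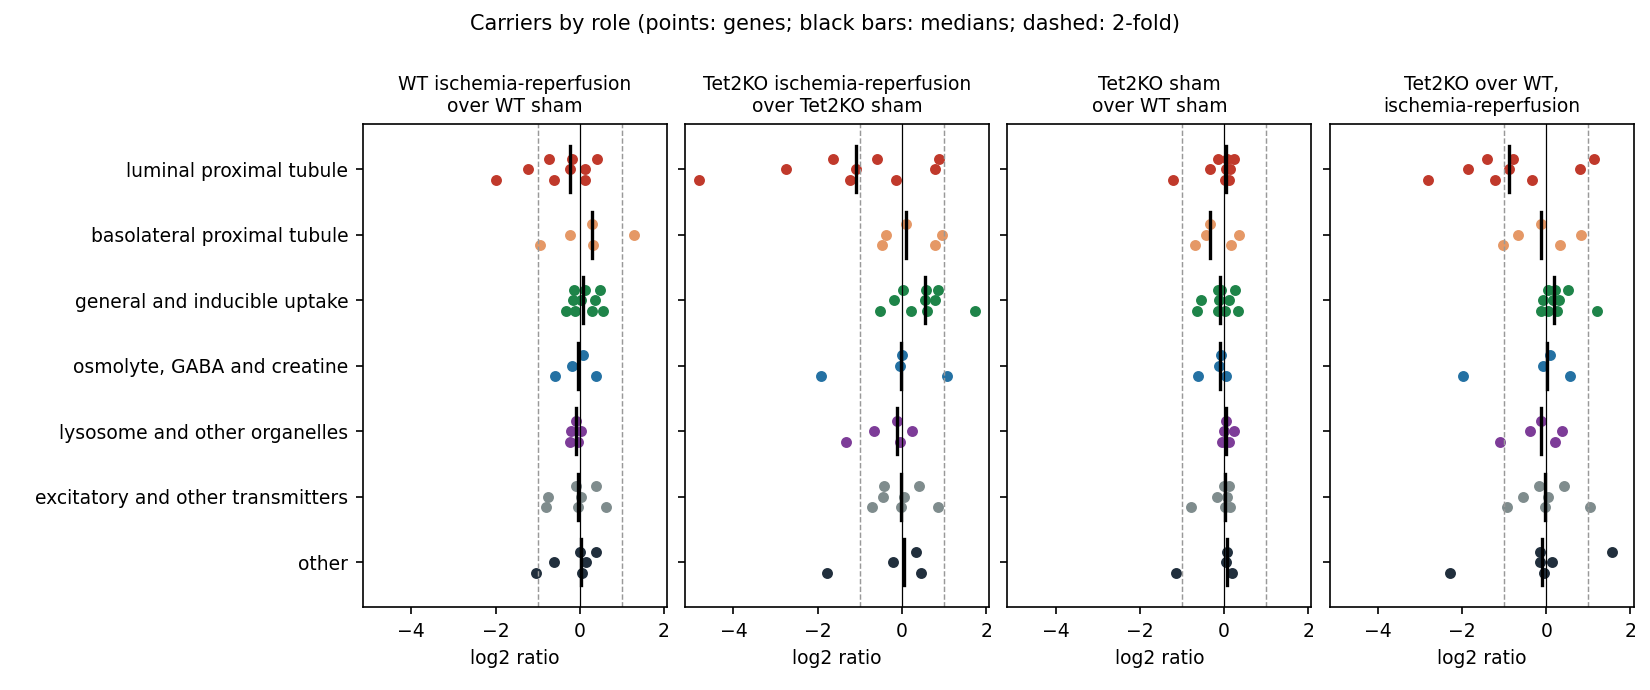
Log2 ratios of the measured carriers by role group in the 4 comparisons between arrays; each point is 1 gene, black bars are group medians and dashed lines mark 2-fold. The luminal group is centred at -1.08 in the knockout-labelled response and at 0.04 between the sham arrays, while the general and inducible uptake group is centred at 0.55 in the knockout-labelled response.

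Of the 14 general and inducible uptake carriers, 10 were measured. In wild type 0 were higher or lower, with a median of 0.09, and in the knockout-labelled pair 1 was higher and 0 lower, with a median of 0.55. The shares of all genes were 2.06% higher and 2.18% lower in wild type, and 6.06% and 6.89% in the knockout-labelled pair. So few members cannot be set against these shares. In the knockout-labelled pair ratios were above 0 for 8 of 10 members, where they were for 6552 of 13600 genes. Slc1a4 (-0.51) and Slc7a3 (-0.19) were the members below 0. Slc38a2 encodes SNAT2, a sodium-coupled carrier of small neutral amino acids that is known to be induced by amino acid shortage and by hypertonicity. It read 10.47 in wild-type sham, 10.95 in wild-type injured, 10.40 in knockout-labelled sham and 12.14 in the knockout-labelled injured kidney. The last array stood above the rest, 3.35-fold over its sham and 2.29-fold over the wild-type injured array. Its other probe sets gave log2 ratios of 1.17 and 0.22 for the knockout-labelled response, so the probe sets disagreed by more than 2-fold on its size while all lay above 0.

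Slc6a9, which encodes the glycine carrier GlyT1, read 8.86, 9.23, 9.20 and 9.75 in wild-type sham, wild-type injured, knockout-labelled sham and knockout-labelled injured kidney, with no 2-fold difference. Further members were picked after their values were seen. Slc7a1, the carrier CAT1 of basic amino acids, read 8.44, 9.01, 8.30 and 9.16, and a second probe set gave a log2 ratio of 1.51 after injury in the knockout-labelled pair where the one used gave 0.86. Slc7a5, the light chain LAT1 for large neutral amino acids, read 6.73, 7.03, 6.76 and 7.33. Slc1a5, the glutamine carrier ASCT2, read 8.44, 8.48, 7.89 and 8.69. For Slc7a1 and Slc7a5 each injured array was above both sham arrays, by less than 2-fold. Slc7a11, the cystine and glutamate exchanger xCT, which has 2 response element matches in its promoter window, was under the floor in every array, with signals from 4.96 to 5.10.

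Among the carriers of osmolytes, GABA and creatine, 4 of 5 members were measured. In wild type 0 were higher or lower, and in the knockout-labelled pair 1 was higher and 1 lower. The shares of all genes were 2.06% higher and 2.18% lower in wild type, and 6.06% and 6.89% in the knockout-labelled pair. So few members cannot be set against these shares. Slc6a13 encodes GAT2, a carrier of GABA and taurine. It read 10.48 in wild-type sham, 10.56 in wild-type injured, 10.52 in knockout-labelled sham and 8.59 in the knockout-labelled injured kidney. The first 3 arrays agreed closely, and the last was 3.80-fold under its sham and 3.91-fold under the wild-type injured array. Slc6a8, the creatine carrier, read 10.87, 11.26, 10.76 and 11.82, 2.09-fold higher after injury in the knockout-labelled pair, where its other probe set gave a log2 ratio of 0.77. Slc6a6, the taurine carrier, read 12.46, 12.28, 12.38 and 12.37. A dimmer probe set of Slc6a6 was lower after injury in wild type, with a log2 ratio of -1.03.

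Of the carriers of the lysosome and other organelles, 5 of 6 were measured, with 0 higher or lower in wild type and 1 lower in the knockout-labelled pair. Lower shares of all genes were 2.18% and 6.89%, and 5 members are too few to set against them. Slc36a1 encodes PAT1, which moves small neutral amino acids with protons out of the lysosome and takes part in sensing amino acid supply. It read 9.96 in wild-type sham, 9.75 in wild-type injured, 9.96 in knockout-labelled sham and 8.64 in the knockout-labelled injured kidney. The sham arrays were equal, and the knockout-labelled injured array was 2.50-fold below its sham. Slc38a10 read 10.95, 10.90, 11.19 and 10.52, lower by 1.59-fold after injury in the knockout-labelled pair.

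Among the carriers of excitatory and other transmitters, 7 of 11 were measured and 0 changed by 2-fold after injury in either genotype. The shares of all genes were 2.06% higher and 2.18% lower in wild type, and 6.06% and 6.89% in the knockout-labelled pair. At such shares 0 of 7 says little about this group. Slc6a15, which encodes B0AT2, a carrier of branched-chain amino acids and proline, read 10.58 in wild-type sham, 9.83 in wild-type injured, 10.57 in knockout-labelled sham and 9.87 in the knockout-labelled injured kidney. It was lower by nearly the same amount in both genotypes, 1.68-fold and 1.63-fold. Slc6a17, a carrier of synaptic vesicles, read 8.11, 8.03, 8.19 and 9.05. It was 2.04-fold higher in the knockout-labelled than in the wild-type injured array, a difference that its other probe sets, with log2 ratios of 0.09 and -0.04, did not show.

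Of the remaining 10 carriers, 6 were measured after injury in wild type and 4 in the knockout-labelled pair. Slc7a12 encodes Asc-2, a light chain for small neutral amino acids. It read 8.63 in wild-type sham, 8.004 in wild-type injured, 7.49 in knockout-labelled sham and 4.89, under the floor, in knockout-labelled injured kidney. It was at least 3.41-fold lower after injury in the knockout-labelled pair and 2.20-fold lower in the knockout-labelled than in the wild-type sham. Slc38a6 read 9.03, 9.41, 9.09 and 9.55, and Slc7a4 read 8.49, 8.49, 8.55 and 8.34, with no difference near 2-fold.

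Slc43a3, the purine nucleobase carrier, read 7.17 in wild-type sham, 6.14 in wild-type injured, 7.37 in knockout-labelled sham and 7.70 in the knockout-labelled injured kidney. The wild-type injured array was low, 2.04-fold under its sham, and the knockout-labelled injured array was 2.95-fold above it. The wild-type difference was just past 2-fold and fell short of it with a pseudocount (-0.67), with the higher floor (-0.87) and with quantile normalization (-0.999). Endothelial markers had their low value in the same array. Of 7 such markers, 4 were lower at 2-fold or more after injury in wild type and 1 in the knockout-labelled pair, and 5 were higher in the knockout-labelled than in the wild-type injured array. In the same order, 2.18%, 6.89% and 3.68% of all genes were called. The log2 of the summed signal of the endothelial markers was 11.41, 9.71, 11.28 and 11.06, and Emcn read 9.91, 7.08, 9.16 and 9.01. The 5 podocyte markers had a log2 of summed signal of 8.80 in that array and 10.71, 10.85 and 11.51 in wild-type sham, knockout-labelled sham and knockout-labelled injured kidney. The part of these cell types in the Slc43a3 values was not tested.

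The sham arrays of the genotypes differed little in their carriers. Of 44 measured carriers 0 were higher and 2 lower (4.55%) in the knockout-labelled sham, Slc36a2 and Slc7a12, against 0.186% higher and 0.846% lower among 13474 genes. The count of 2 became 0 with a pseudocount, and 1 with the 50th percentile floor or with genes over the floor in both arrays, so no excess over all genes is read from it. The median was 0.02, and 0.04 over all genes. Probe sets of the same gene differed with an SD of 0.19 in this comparison, so the carriers under 2-fold cannot be ranked finely. Basolateral members had a median of -0.34, with Slc7a8 at -0.69 and Slc43a2 at 0.36 as the extremes. Other markers differed between the same arrays: 4 of 6 measured fat markers and 4 of 7 urothelium markers were lower in the knockout-labelled sham, and Havcr1, a marker of tubular injury, was 5.72-fold lower. Their part in the values of Slc36a2 and Slc7a12 was not tested.

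The injured arrays of the genotypes differed in more carriers. This comparison shares its arrays with the responses above and adds no independent evidence to them. Of 46 measured carriers, 4 were higher in the knockout-labelled injured kidney (Slc43a3, Slc38a2, Slc6a19 and Slc6a17) and 8 were lower (Slc7a13, Slc7a12, Slc6a13, Slc6a20b, Slc3a1, Slc6a20a, Slc36a1 and Slc38a3). These are 8.7% and 17.4%, against 3.68% and 3.99% of 13492 genes. With a gene read as the median of its probe sets, the 4 higher carriers became 1 and the 8 lower ones 7. The luminal group had a median of -0.87, with 1 higher and 4 lower of 9. Below Slc7a13 in size of loss came Slc7a12, at least 4.86-fold lower, Slc6a13, 3.91-fold lower, and Slc6a20b, 3.64-fold lower.

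The difference of the responses, which uses all 4 arrays, was 2-fold or more upward for 5 carriers (10.9%) and downward for 9 (19.6%) of 46, where 4.75% and 4.77% of 13808 genes were. The 5 became 3 with the 50th percentile floor or with genes over the floor in every array. The 5 were Slc36a2, Slc6a19, Slc43a3, Slc38a2 and Slc1a3, and the 9 were Slc7a13, Slc6a13, Slc6a20b, Slc3a1, Slc6a20a, Slc38a3, Slc7a12, Slc36a1 and Slc6a4. The last of each list reached 2-fold in this comparison alone. Slc1a3, a glutamate carrier, read 6.51, 5.10, 5.41 and 6.13, with the middle values under the floor as for Slc36a2. Slc6a4, the serotonin carrier, read 6.73, 7.35, 6.86 and 6.42, higher after injury in wild type by 1.54-fold and lower in the knockout-labelled pair by 1.36-fold.

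Several probe sets of a gene allow a check within each array. Of 20 carriers with more than 1 probe set at or over the floor, all 20 had them within 2-fold of each other in the wild-type response, and in 14 they had the same sign. In the knockout-labelled response 17 of 19 were within 2-fold, with Slc38a2 and Slc6a19 outside, and 12 had the same sign. Slc7a13 and Slc6a20b kept large losses on each of their probe sets. The other probe sets of Slc1a1 fell short of 2-fold. Slc3a1, Slc6a20a, Slc6a13, Slc36a1 and Slc7a12 have a single probe set each, so their losses could not be checked in this way.

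**Figure D4:**
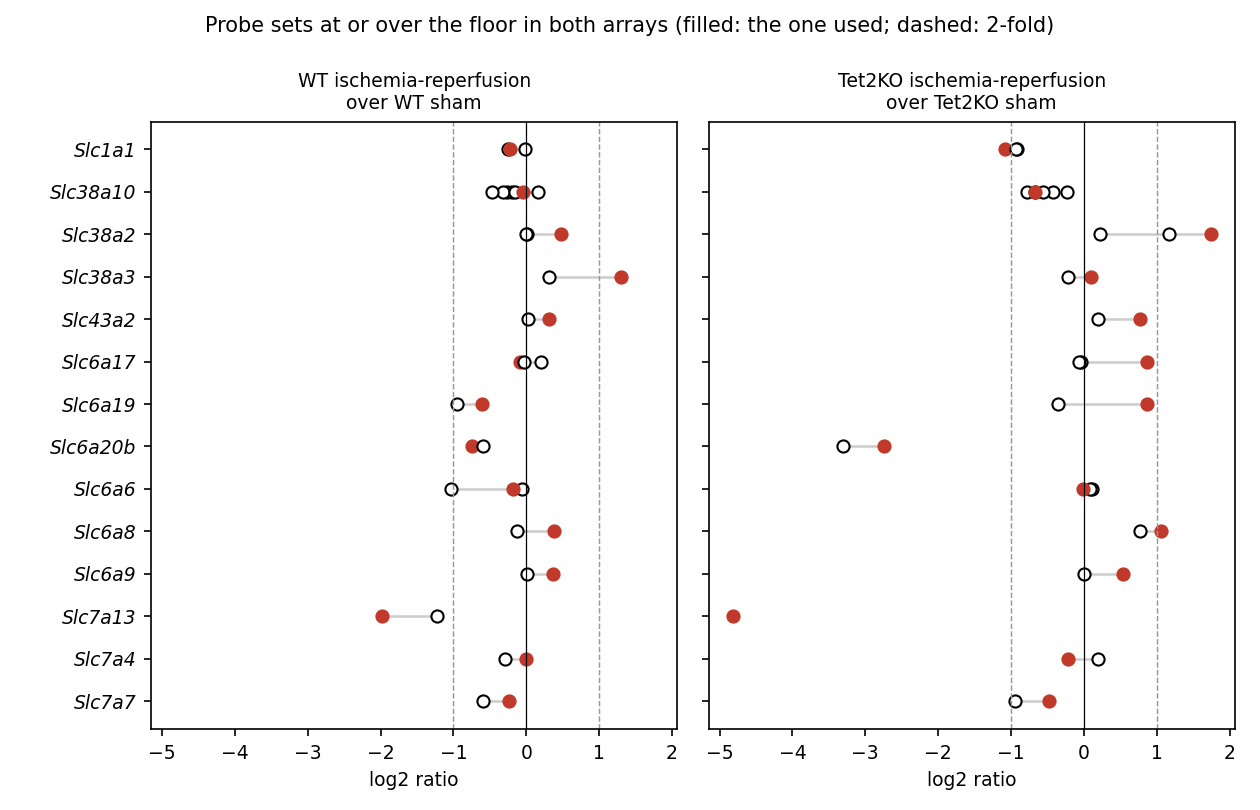
Log2 ratios of injured over sham kidney for each probe set of the named carriers with several, in wild type (left) and in the knockout-labelled pair (right); filled points are the probe sets used, open points the others, and only probe sets at or over the floor in both arrays are drawn, so the second one of Slc7a13 is missing on the right. The probe sets of Slc6a20b lie together at -2.75 and -3.30 on the right, and those of Slc6a19 lie on both sides of 0, at 0.87 and -0.36.

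By family, the lower carriers of the knockout-labelled response came from 5 of the 7 families that the rule names. They were 3 of 13 measured Slc6a members, 2 of 10 Slc7a, 1 of 6 Slc1a, 1 of 2 Slc3a and 1 of 3 Slc36a. Over all genes 6.89% were lower, and families with so few measured members cannot be set against that share. The Slc38a family had 1 higher and 0 lower of 7 in each genotype, Slc38a3 in wild type and Slc38a2 in the knockout-labelled pair. All 3 Slc43a members had ratios above 0 in the knockout-labelled response, the largest of them 0.78 for Slc43a2.

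Partners, related carriers and regulators of amino acid supply were followed as a list of 24 names, of which 20 were on the array and 19 measured. After injury 2 were higher and 0 lower in wild type, and 3 were higher and 2 lower in the knockout-labelled pair, with medians of 0.03 and 0.41. The shares of all genes were 2.06% higher and 2.18% lower in wild type, and 6.06% and 6.89% in the knockout-labelled pair. No excess over them is read from so few genes. Collectrin (Cltrn), the partner of Slc6a19 and its relatives, read 13.99 in wild-type sham, 13.80 in wild-type injured, 13.89 in knockout-labelled sham and 13.51 in the knockout-labelled injured kidney and stayed within 2-fold. Hnf4a read 13.02, 13.12, 13.22 and 12.62. Anpep, a brush border peptidase that releases amino acids from peptides, was 3.72-fold lower after injury in the knockout-labelled pair, with signals of 8.27, 8.46, 8.62 and 6.72. Slc15a2, the high-affinity carrier of small peptides, was 4.97-fold lower there and 1.70-fold lower in wild type, with signals of 11.63, 10.87, 11.75 and 9.44. Both had their lowest signal in the knockout-labelled injured array, as Slc3a1 and Slc6a20b did.

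Of the 6 genes of the amino acid response on the list, Asns and Chac1 passed 2-fold in 1 or more comparisons, and Atf4, Ddit3, Trib3 and Sesn2 did not. Asns, asparagine synthetase, read 7.73 in wild-type sham, 9.13 in wild-type injured, 9.28 in knockout-labelled sham and 10.52 in the knockout-labelled injured kidney. It was 2.63-fold and 2.38-fold higher after injury in the genotypes, and already 2.91-fold higher in the knockout-labelled sham than in the wild-type sham. Chac1, which degrades glutathione, read 6.96, 7.06, 6.75 and 8.52, high in the same array as Slc38a2. Slc66a1, a lysosomal exporter of basic amino acids, was 2.01-fold higher after injury in the knockout-labelled pair. Atf4, the transcription factor of the response, read 10.88, 10.90, 10.79 and 11.55 and stayed under 2-fold. Trib3 was 1.75-fold and Sesn2 1.32-fold higher after injury in the knockout-labelled pair, also under 2-fold. Ddit3 read 8.79, 9.27, 8.10 and 8.67, lower in each knockout-labelled array than in its wild-type counterpart. In the glutamine and ammonia pathway that SNAT3 feeds, Glud1, glutamate dehydrogenase, was 2.15-fold higher after injury in wild type, at 12.31 and 13.42, and 1.62-fold higher in the knockout-labelled pair, at 12.76 and 13.46. Pck1, the enzyme that starts gluconeogenesis from these carbon skeletons, read 13.35, 13.89, 13.54 and 12.83 and was 2.08-fold lower in the knockout-labelled than in the wild-type injured kidney.

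The 27 carriers named by rule leave 33. Of these, 14 were under the floor in every array: Slc1a6, Slc38a4, Slc38a5, Slc6a3, Slc6a5, Slc6a7, Slc6a11, Slc6a14, Slc6a16, Slc7a2, Slc7a10, Slc7a11, Slc7a14 and Slc7a15. The other 19 did not reach 2-fold between any arrays compared. Their log2 ratios after injury ranged from -0.79 to 0.62 in wild type and, for the 17 measured, from -0.51 to 0.86 in the knockout-labelled pair. Of the opposite-strand genes, Slc7a6os stayed near its sham values, Slc36a1os was under the floor, and Slc6a19os reached the floor only in the knockout-labelled injured array, at 6.56 after 4.76, 5.39 and 4.92.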

How the data were processed

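Per the labels, total RNA (Trizol) was converted to biotinylated cRNA for Affymetrix arrays. The deposited table holds 45037 probe sets as log2 signal, as read from its values (2.51 to 14.97). The submitters' processing notes name MAS5; its version and the scaling are not given in the sources used here. Genes were named from the platform annotation; all 125 member probe sets matched RefSeq GRCm38.p6 by Entrez identifier. Each gene was read from its probe set with the highest mean signal (_x_at only without another). Signals under a linear floor of 52.8 were raised to it; a fold with the floor on one side is written as at least. Python 3.11.15, numpy 2.4.6 and pandas 2.3.3 were used. A run on simulated data, with large shifts in bright genes, checked only that the code returns such shifts. It does not bear on calls near 2-fold or at the floor. The 7 alternatives are in the closing section.

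Members and lists were chosen with earlier results of these data known. Named were carriers past 2-fold between arrays, all luminal and basolateral carriers, carriers whose probe sets disagreed by 2-fold, and the 2 highest of each other role group; of partners, those past 2-fold, with Cltrn, Hnf4a and Atf4 added after their values were seen.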

Additional observations from a re-analysis of the deposited data

Results flagged for a closer look

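The difference of the ischemia-reperfusion responses was 2.01 (log2, knockout-labelled minus wild type) for Slc36a2 and 1.49 for Slc6a19, because each signal was lower after injury in wild type and higher in the knockout-labelled pair. With 1 array per group the differences were not tested. For Slc36a2 the value rests on signals set to the floor in 2 of the 4 arrays. For Slc6a19 the other probe set gave 0.59.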

How the results depend on the processing

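Of 40 called values of single carriers, 40 could be recomputed under 5 of the 7 alternatives, 34 with genes over the floor in every array and 13 with the other sham array as control, and 0 of those recomputed reversed. Slc3a2, Slc6a18 and Slc7a7 have no plain probe set, so they were not recomputed in that setting. With a pseudocount instead of a floor, lower carriers fell from 3 to 1 in the wild-type response and from 2 to 0 between the sham arrays. With the floor at the 50th percentile, lower carriers were 1 in each of these comparisons, and carriers higher in the difference of responses were 3 in place of 5. With only genes at or over the floor in every array compared, the lower carriers between the sham arrays were 1 and the higher ones in the difference were 3. With a gene read as the median of its probe sets, higher carriers were 0 in place of 1 in the wild-type response and 1 in place of 4 between the injured arrays. In this setting Slc38a3 in wild type was at 0.81, Slc6a8 in the knockout-labelled response at 0.92 and Slc1a1 at -0.91. Slc43a3 in the wild-type response was at -0.67 with a pseudocount, -0.87 with the higher floor and -0.999 with quantile normalization, just short of 2-fold. With the sham array of the other genotype as control, 12 of 13 called results stayed called, and Slc43a2 (1.14) and Slc7a8 (-1.07) passed 2-fold in the knockout-labelled response. The sign of values under 2-fold turned with this control in 6 of 53 results: Slc36a2 (-0.43) and Slc6a18 (0.09) in the knockout-labelled response, and Slc7a12 (0.51), Slc7a7 (0.19), Slc43a2 (-0.06) and Slc6a20a (-0.0034) in wild type. It turned in 4 of 80 with the median over probe sets (Slc38a3, Slc6a17, Slc6a6 and Slc7a4, all in the knockout-labelled response) and in 1 of 80 with quantile normalization (Slc6a6). The cause was not tested. With plain probe sets only, all 40 called results stayed called, and with quantile normalization 38 of 40. No paired analysis was possible because each group has 1 array. Leaving out a replicate was not possible for the same reason. Signal close to the floor limits Slc36a2, Slc43a3, Slc7a12, Slc1a3 and Slc6a4.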

Other observations

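Carriers known from fat cells were looked at after the fat markers had been seen to differ between arrays. Slc7a10, which encodes Asc-1 and is known as a surface marker of white fat cells, was under the floor in every array, at 5.39 in wild-type sham, 5.16 in wild-type injured, 4.93 in knockout-labelled sham and 5.26 in the knockout-labelled injured kidney. Ucp1, the uncoupling protein of brown fat, read 7.51, 5.01, 4.97 and 5.70, where Slc36a2 read 6.94, 5.46, 5.55 and 6.52. In both, the wild-type sham array was highest. Ucp1 was under the floor in the other arrays, so their order is not read for it. Of the other fat markers, Adipoq and Cidea were also highest in the wild-type sham, at 10.11 and 9.68. Fabp4, Cidec and Retn were highest in the knockout-labelled injured array, at 13.04, 8.36 and 7.61. Lep was under the floor in every array.

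Genes of amino acid sensing, also picked after their values were seen, stayed under 2-fold. Sesn1, a leucine sensor family member, read 8.82, 8.05, 8.57 and 7.77, lower after injury by 1.70-fold in wild type and 1.74-fold in the knockout-labelled pair. Castor1, the arginine sensor, was lower by 1.49-fold and 1.38-fold. Rraga, a GTPase of the lysosomal sensing complex, read 10.08, 10.11, 10.13 and 10.17.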
